A study of Mus musculus with 8 samples.

Results

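The expression of 10 genes of skeletal muscle formation was followed from the embryonic notochord to the newborn nucleus pulposus (NP), the gel-like core of the intervertebral disc that notochord cells give rise to. They were taken by gene symbol from a list of myogenic regulators and contractile genes: Myod1, Myog, Myf5, Pax7, Mef2c, Actc1, Acta1, Myh3, Tnnt1 and Chrna1, which are 10 of the 43346 gene identifiers counted. All mice carried Shh-cre and the ROSA:YFP reporter, so that yellow fluorescent protein (YFP) marked cells that had expressed Cre from Shh, together with their descendants. Both stages therefore carried the same alleles, and no group without Cre was compared. The 4 samples of embryonic day 12.5 (E12.5) were notochords dissected whole from the embryos of a litter, cleared of adjoining tissue by hand and put straight into lysis reagent without sorting. The 4 samples of postnatal day 0 (P0) were NP cells shaken from opened thoracic and lumbar discs and sorted for YFP. Each sample pooled the embryos or pups of 1 litter, and litters are named here by their codes: NDP10.2, NPD3, NPD4 and NPD9.2 at E12.5, and NPD26, NPD27, NPD28 and NPD30 at P0. Age and method of isolation changed together and cannot be told apart.

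Skeletal muscle of the trunk arises from the somites, which lie beside the notochord. Pax3 and Pax7 mark the progenitors, the basic helix-loop-helix factors Myf5 and Myod1 commit them, and Myog, helped by MEF2 factors, drives their differentiation into multinucleated fibres. Fibres then fill with sarcomeres of actin, myosin, troponin and titin, and gather acetylcholine receptors under the motor nerve. Early fibres use forms of these proteins that are later replaced: embryonic myosin (Myh3) gives way to perinatal myosin (Myh8) and then to adult myosins, and cardiac actin (Actc1) gives way to skeletal actin (Acta1). The notochord itself is no muscle, and these genes are not among those that define it.

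Each E12.5 library held 4442775 to 7180221 reads on genes, and each P0 library 6371842 to 8904050. Levels are given in CPM (reads of a gene per 1000000 reads of the library, its size scaled with TMM factors). The limit that a count of 0 allows, taken as 3 reads, came to 0.337 to 0.675 CPM before TMM scaling, counting error only. The notochord markers T, Shh, Krt8 and Krt18 were read in all 4 E12.5 libraries, the summed notochord list spanning 985 to 3326 CPM there and 1014 to 4082 CPM in the P0 libraries. Noto, which marks the node and early notochord, did not exceed 0.433 CPM in any of the 8 libraries, and Shh was at 0.157 to 11.8 CPM at P0. The E12.5 library of NPD4 stood apart in neural genes, with a summed neural tube list of 1416 CPM against 85.3 CPM in the lowest E12.5 library. Its largest parts were Tubb3 (576 CPM), Elavl4 (477 CPM) and Elavl3 (289 CPM). Among the E12.5 libraries NPD4 had the most Sox2 (27.0 CPM) but the least Pax6 (1.57 CPM). In the P0 libraries the list summed to 170 to 426 CPM.

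The promoters of 4 of the genes are shown because these genes bracket the pattern described below: Myog and Chrna1, which fell to 1.89 CPM or less by P0, and the sarcomeric actins Actc1, which fell, and Acta1, which was not called. Each is the 250 bases before the RefSeq transcription start (GRCm38.p6), read in the direction of the gene, with every E-box (CANNTG, the site that Myod1, Myog and Myf5 bind) and every CArG box (the serum response factor site) in capitals. They lie at chr1:134289754-134290003 on the plus strand for Myog, and on the minus strand at chr2:73580339-73580588 for Chrna1, chr2:114052876-114053125 for Actc1 and chr8:123894776-123895025 for Acta1.
Myog: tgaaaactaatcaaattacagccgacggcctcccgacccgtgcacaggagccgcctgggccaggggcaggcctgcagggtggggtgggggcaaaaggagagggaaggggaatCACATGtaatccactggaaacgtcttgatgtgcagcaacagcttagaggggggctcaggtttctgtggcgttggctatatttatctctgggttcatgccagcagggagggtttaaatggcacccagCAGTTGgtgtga
Chrna1: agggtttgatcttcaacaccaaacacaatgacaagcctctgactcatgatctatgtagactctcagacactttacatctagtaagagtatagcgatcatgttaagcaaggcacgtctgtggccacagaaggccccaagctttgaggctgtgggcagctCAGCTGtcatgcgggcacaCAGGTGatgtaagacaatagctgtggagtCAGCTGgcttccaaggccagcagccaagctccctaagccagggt
Actc1: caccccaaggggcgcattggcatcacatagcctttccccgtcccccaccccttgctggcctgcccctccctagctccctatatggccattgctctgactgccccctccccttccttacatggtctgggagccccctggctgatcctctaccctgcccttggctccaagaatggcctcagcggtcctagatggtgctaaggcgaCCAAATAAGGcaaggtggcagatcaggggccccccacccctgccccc
Acta1: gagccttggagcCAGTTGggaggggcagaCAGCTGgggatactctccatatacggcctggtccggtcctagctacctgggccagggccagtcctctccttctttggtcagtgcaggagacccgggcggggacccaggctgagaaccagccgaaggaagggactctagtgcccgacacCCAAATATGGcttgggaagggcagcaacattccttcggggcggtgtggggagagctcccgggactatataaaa

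Of the 10 genes, 7 fell from E12.5 to P0 and none rose. The 7 that fell were the regulators Myod1, Myog and Pax7, the contractile genes Actc1, Myh3 and Tnnt1, and the acetylcholine receptor subunit Chrna1. Mean levels were between 9.92 times (Pax7) and 63.1 times (Myh3) higher at E12.5. Mef2c and Acta1 were tested and not called, and Myf5 was too low to be tested. These calls come from edgeR's quasi-likelihood F-test across 15467 genes, with a Benjamini-Hochberg adjusted p under 0.05. In the same fit 12.0% of all tested genes fell and 16.0% rose, and the median log2 fold change over all tested genes was 0.04. Every P0 library lay below every E12.5 library for 8 of the 10 genes, Myf5 included, a separation seen in that direction for 14.4% of the tested genes. Because the libraries were made from bulk RNA, fewer muscle cells and less muscle RNA per cell cannot be told apart. Which cells held these transcripts at either stage was not tested.

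**Figure D1:**
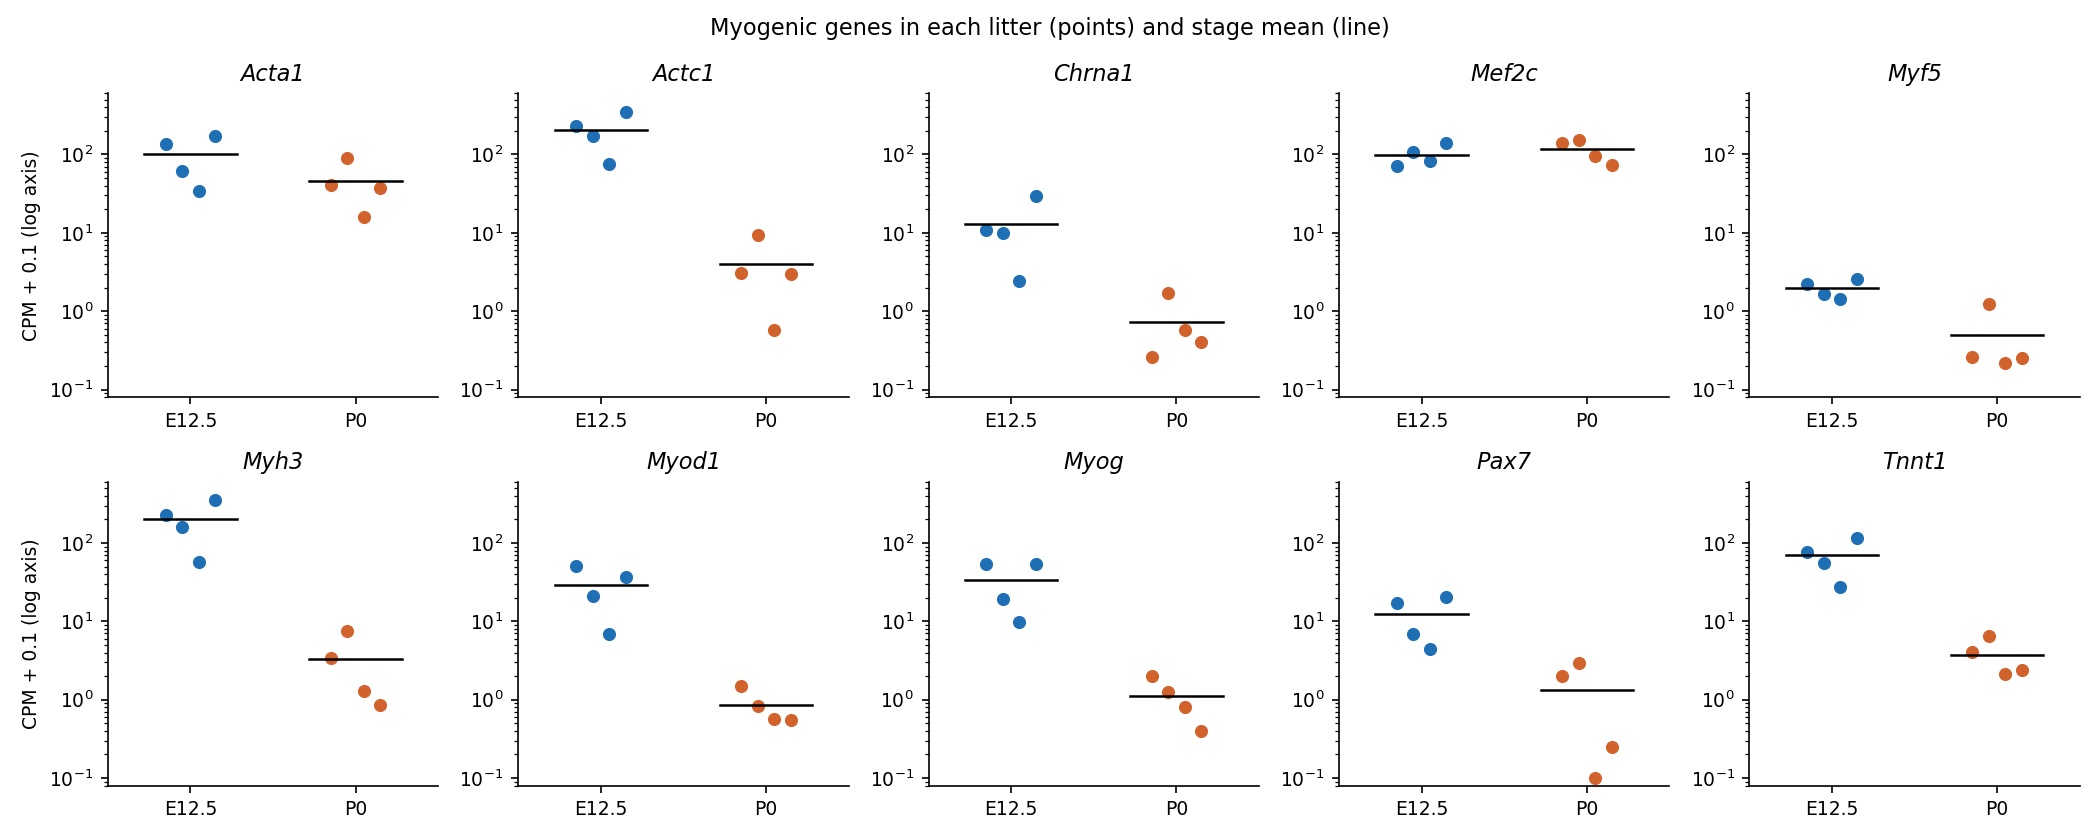
Level of each of the 10 genes in each litter (points, in CPM plus 0.1 on a log axis; blue E12.5, orange P0) with the stage mean as a line. The clouds of points are apart for 8 genes and overlap for Mef2c and Acta1.

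The myogenic determination factor Myod1 (chr7:46376474-46379099, plus strand) was read at 51.4, 20.7, 6.77 and 36.6 CPM in NDP10.2, NPD3, NPD4 and NPD9.2. At P0 it was at 1.42, 0.721, 0.471 and 0.455 CPM in NPD26, NPD27, NPD28 and NPD30. The stages did not overlap, and the P0 values stood on only 3 to 9 reads each. Its log2 fold change (P0 over E12.5) was -5.22 ± 0.68 (SE; edgeR adjusted p = 0.000552).

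Myog (chr1:134289989-134292548, plus strand), which carries committed myoblasts into differentiation, followed it closely. It was at 53.5, 19.1, 9.79 and 53.6 CPM in the E12.5 litters and at 1.89, 1.15, 0.706 and 0.303 CPM in the P0 litters. The lowest E12.5 litter still lay well above the highest P0 litter. The log2 fold change was -5.05 ± 0.70 (SE; edgeR adjusted p = 0.000754).

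Pax7 (chr4:139737062-139833528, minus strand), the factor of muscle progenitors and later of satellite cells, which is also used in the dorsal neural tube, was at 17.2, 6.83, 4.35 and 20.4 CPM at E12.5. At P0 it was at 1.89 and 2.88 CPM in NPD26 and NPD27, at 0.152 CPM in NPD30 and at 0 in NPD28, which allows up to 0.337 CPM before TMM scaling. The P0 litters thus split into a pair with some Pax7 and a pair with next to none. NPD4, the E12.5 litter with the most neural RNA, had the least Pax7 of its stage, but it was also lowest for most of the other myogenic genes. The part of neural cells in the Pax7 level was not tested. The fall of Pax7, -3.30 ± 0.98 (log2, SE; edgeR adjusted p = 0.0296), was the least secure of the 7. It was no longer called without E12.5 litter NDP10.2 (adjusted p = 0.0664), without NPD9.2 (0.0752) or without P0 litter NPD26 (0.0572), all from edgeR.

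Myf5 (chr10:107482908-107486134, minus strand), the earliest of the commitment factors, was scarce at both stages. Its E12.5 levels were 2.12, 1.56, 1.33 and 2.46 CPM. Its P0 levels were 0.157, 1.15, 0.118 and 0.152 CPM, and NPD27 held 8 of the 11 reads. No P0 litter reached the lowest E12.5 litter, but the gene did not pass the filter on low counts. Without that filter its log2 fold change was -2.20 (edgeR adjusted p = 0.175). With any 1 litter left out it was tested, and it was called in 1 of these 8 fits, without NPD27 (-3.53, edgeR adjusted p = 0.0133), the other 7 giving adjusted p of 0.0852 to 0.153.

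Mef2c (chr13:83504034-83667080, plus strand) encodes a MEF2 partner of the myogenic factors that heart, endothelium, neurons, growth plate cartilage and white blood cells also use. The E12.5 litters had 70.3, 106, 82.8 and 139 CPM, and the P0 litters 142, 155, 94.2 and 73.4 CPM. The ranges overlapped almost entirely, with a log2 fold change of 0.22 (95% interval -0.45 to 0.89; edgeR adjusted p = 0.632). The leukocyte list moved between the same libraries: all 10 of its genes rose, and its sum went from 44.1 to 115 CPM at E12.5 to 2804, 3421, 3080 and 255 CPM in NPD26, NPD27, NPD28 and NPD30. The litter with the least leukocyte RNA at P0, NPD30, was also the P0 litter with the least Mef2c. The endothelial list ranged from 78.8 to 165 CPM in the E12.5 litters and from 74.5 to 137 CPM in the P0 litters. The part of these cells in the Mef2c level was not tested.

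Of the contractile genes, embryonic myosin Myh3 (chr11:67078300-67102291, plus strand) had the largest fall among the 10. The E12.5 litters had 230, 162, 57.3 and 353 CPM, against 3.30, 7.50, 1.18 and 0.758 CPM in the P0 litters, with no overlap. Its log2 fold change was -5.98 ± 0.81 (SE; edgeR adjusted p = 0.000823). Of the 100-base stretches of its annotated transcripts, 1.13% also occur in transcripts of another gene, Myh13, and reads from those stretches cannot be assigned to 1 gene.

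Cardiac actin Actc1 (chr2:114047282-114053548, minus strand), the main sarcomeric actin of heart and of early skeletal muscle, was at 229, 173, 74.8 and 352 CPM at E12.5. It was at 2.99, 9.23, 0.471 and 2.88 CPM at P0, and the log2 fold change was -5.74 ± 0.81 (SE; edgeR adjusted p = 0.000959). The cardiac list of 7 genes summed to 18.5 to 23.6 CPM in the E12.5 litters and to 14.8 to 33.4 CPM in the P0 litters. Nppa, the atrial natriuretic peptide gene, did not exceed 0.577 CPM in any library. Among the 4 cardiac genes tested, 1, Myl7, was called higher and none was called lower. Myh6 had means of 7.98 and 1.87 CPM and was not called (edgeR adjusted p = 0.0735), nor were Tnni3 and Myl2. The cardiac troponin form Tnnt2, counted here with the sarcomere genes, fell from a mean of 31.1 to 1.45 CPM. Myh7 (16.5 to 1.09 CPM) and Tnnc1 (36.2 to 0.921 CPM), which heart and slow skeletal fibres share, were counted there too and also fell. The part of heart cells in the Actc1 level was not tested.

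Slow troponin T, Tnnt1 (chr7:4504570-4516382, minus strand), which anchors the troponin complex on the thin filament, was at 76.4, 56.0, 27.3 and 117 CPM at E12.5. At P0 it was at 3.93, 6.49, 2.00 and 2.27 CPM. Its log2 fold change of -4.23 ± 0.53 (SE) had the smallest adjusted p of the 9 genes tested (edgeR, 0.000488).

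Chrna1 (chr2:73563215-73580338, minus strand), the agonist-binding subunit of the muscle acetylcholine receptor, was at 10.9, 9.76, 2.30 and 29.3 CPM at E12.5. At P0 it was at 0.157, 1.59, 0.471 and 0.303 CPM, NPD27 holding 11 of the 18 reads. The lowest E12.5 litter, NPD4, came close to the highest P0 litter. The log2 fold change was -4.31 ± 0.87 (SE; edgeR adjusted p = 0.00449), and the call was lost with limma-voom (adjusted p = 0.0549).

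Skeletal actin Acta1 (chr8:123891769-123894751, minus strand), the main sarcomeric actin of mature skeletal fibres, was the contractile gene of the 10 that was not called. The E12.5 litters had 137, 62.1, 33.6 and 171 CPM, and the P0 litters 41.0, 90.6, 15.7 and 37.3 CPM. The stages overlapped, since NPD27 at P0 exceeded both NPD3 and NPD4. The log2 fold change was -1.13 (95% interval -2.44 to 0.19; edgeR adjusted p = 0.187). The log2 fold changes of Actc1, Myh3 and Tnnt1 lie outside that interval, and 0 lies inside it.

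Per kilobase of exon, the order of the genes changed between the stages. The length taken for a gene was that of the merged exons of all its annotated transcripts. A gene with many forms is set low on this scale if the forms present are shorter. Mef2c was given 15715 bases, merged over 31 transcripts, and Acta1 1536 bases. At E12.5 the mean levels ran from Actc1 at 128 CPM per kb, through Acta1 at 65.8, Myh3 at 33.1, Tnnt1 at 31.4, Myog at 22.8 and Myod1 at 15.5, to Mef2c at 6.34. Chrna1 (2.97), Pax7 (2.08) and Myf5 (0.897 CPM per kb) closed the order, and each pair of neighbours overlapped in range. At P0 Acta1 came first at 30.04 CPM per kb (SD 20.6, n = 4), and its lowest litter lay above the highest litter of Mef2c, the next gene (mean 7.38 CPM per kb). Actc1 followed at 2.41 and Tnnt1 at 1.67 CPM per kb, and the remaining 6 genes lay between 0.144 (Chrna1) and 0.677 CPM per kb (Myog), with overlapping neighbours.

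The balance of the 2 sarcomeric actins was compared within each library, where the total of the 2 transcripts cancels out. Acta1 made up 37.5%, 26.4%, 31.0% and 32.7% of the Acta1 plus Actc1 reads in NDP10.2, NPD3, NPD4 and NPD9.2, out of 897 to 2127 reads. At P0 it made up 93.2%, 90.8%, 97.1% and 92.8% in NPD26, NPD27, NPD28 and NPD30, out of 137 to 692 reads. The widest of these 95% Wilson intervals at P0, in NPD30, ran from 89.1% to 95.4%, and no E12.5 litter's interval reached above 39.9%. The mean share went from 31.9% ± 4.56 (SD, n = 4) to 93.5% ± 2.64 (SD, n = 4), a difference of 61.6 percentage points (two-sided exact permutation test, p = 0.0286, the smallest that 4 against 4 allows). The coding sequences of the 2 genes are 86.2% identical over 1134 bases, with a longest identical run of 29 bases, and no 100-base stretch of either gene's annotated transcripts occurs in those of another gene. Whole, exact 100-base reads of the 2 genes were therefore distinguishable.

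The myosins shifted too. Myh3 made up 87.9%, 81.6%, 87.0% and 85.8% of the Myh3 plus Myh8 reads at E12.5 and 61.8%, 63.4%, 55.6% and 27.8% at P0. The mean share went from 85.6% ± 2.78 (SD, n = 4) to 52.1% ± 16.6 (SD, n = 4), with a two-sided exact permutation p of 0.0286. These are shares of reads, and Myh8 (11772 bases of merged exon) is longer than Myh3 (6057 bases). With counts divided by these lengths the difference was -25.4 percentage points, against -33.5 without. The P0 shares rest on 34, 82, 18 and 18 reads, and that of NPD30 has a Wilson interval of 12.5% to 50.9%. Requiring 30 reads left 2 P0 libraries, and the difference was then -23.0 percentage points. The two-sided exact permutation p was 0.133, the smallest that 2 against 4 allows. Myh8 itself fell (log2 fold change -3.85, edgeR adjusted p = 0.00167). Of its annotated 100-base stretches, 3.38% also occur in Myh1, Myh2, Myh4 or Myh13.

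The troponins, looked at after their values were seen, are given with no test. Their shares are of reads and were not scaled by gene length, which was 7752 bases of merged exon for Tnnt2 and 1583 for Tnnt3. The fast form Tnni2 made up 9.22%, 7.01%, 11.02% and 11.2% of the Tnni1 plus Tnni2 reads at E12.5 and 63.6%, 66.4%, 93.3% and 77.1% at P0. The fast form Tnnt3 made up 8.84% to 12.8% of the troponin T reads (Tnnt1, Tnnt2 and Tnnt3) at E12.5 and 45.9% to 62.7% at P0. In level, the slow or cardiac forms Tnni1 (log2 fold change -3.78) and Tnnt2 (-4.41) fell. The fast troponins were not called: Tnni2 went from a mean of 5.32 to 7.75 CPM (edgeR adjusted p = 0.572), and Tnnt3 from 12.3 to 5.78 CPM (0.14). Other genes of fast fibres, also looked at afterwards, did not all hold their level. Mylpf fell from 70.3 to 10.6 CPM (edgeR adjusted p = 0.00949) and Atp2a1 from 17.9 to 2.95 CPM (0.00382), whereas Actn3 was not called (0.488).

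**Figure D2:**
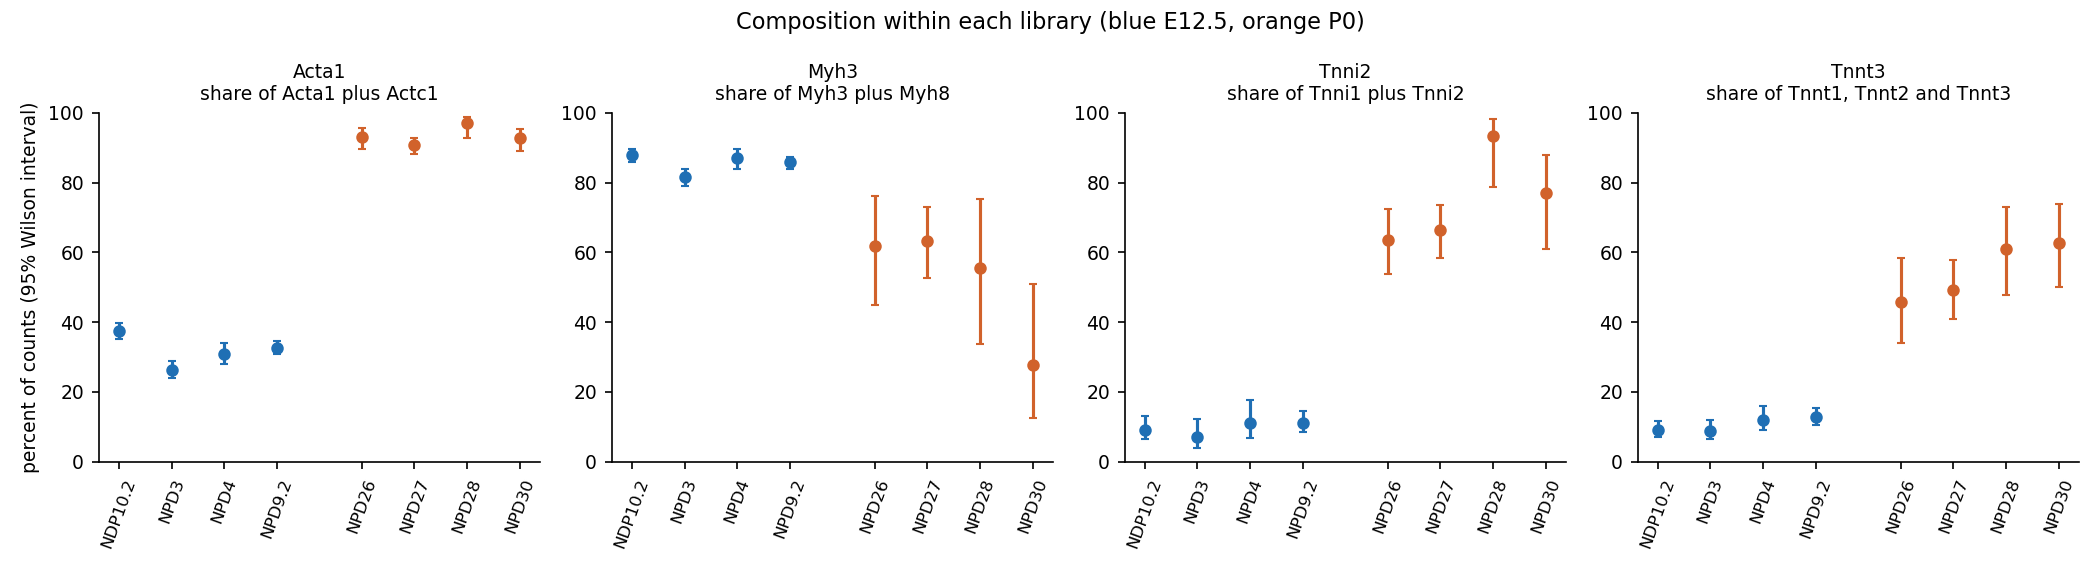
Percent of reads taken by 1 form within each library (points; bars, 95% Wilson intervals; blue E12.5, orange P0), for the 2 actins, the embryonic and perinatal myosins, the slow and fast troponins I, and the 3 troponins T. The Acta1 share is 26.4% to 37.5% in the E12.5 litters and 90.8% to 97.1% in the P0 litters, and the 2 fast troponins also take a larger share in all 4 P0 litters.

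Transcripts of adult fibres, likewise looked at after their values were seen, were rare and did not share a direction. Myh2, an adult fast myosin, had no read in any E12.5 library and 10, 19, 5 and 1 reads in the P0 libraries. Ckm, the muscle creatine kinase, had 1 read in all at E12.5 and 8, 8, 5 and 5 at P0. The adult fast myosins Myh1 (24 reads over the E12.5 libraries and 26 over the P0 libraries) and Myh4 (15 and 15) were read at both stages. Myoglobin, Mb, lay the other way, with 44 reads at E12.5 and 7 at P0. None of these 5 genes passed the filter on low counts, and no test was made.

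The 10 genes belong to a wider list of 71 muscle genes, of which 56 could be tested. Of these 38 fell, 2 rose and 16 were not called, with a median log2 fold change of -2.88. Leaving out the 10 genes, 31 of 47 tested genes fell and 2 rose, with a median of -2.37, beside the 12.0% and 16.0% of all tested genes. Without the E12.5 litters NDP10.2 and NPD9.2, 22 of 60 tested genes of the wider list fell, beside 1088 of all 16971 genes tested in that fit. Upper-quartile scaling moved the median of all tested genes from 0.04 to -0.11.

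Among regulators, 10 of 15 tested genes fell, including Mymk, the fusion protein of myoblasts (-5.20), and 1 rose. Mef2a, a ubiquitous MEF2 factor, rose from 86.2 ± 17.3 to 188 ± 5.26 CPM (mean ± SD, n = 4; log2 fold change 1.12, edgeR adjusted p = 0.00352). Mef2d had means of 91.6 and 144 CPM and was not called (edgeR adjusted p = 0.147).

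Among sarcomere genes, 19 of 25 tested genes fell and none rose. Titin (Ttn), the spring of the sarcomere, had 1207, 1049, 458 and 1820 CPM in the E12.5 litters and 51.0, 54.5, 24.3 and 10.6 CPM in the P0 litters (-5.01, edgeR adjusted p = 0.00047). Nebulin (Neb), the ruler of the thin filament, averaged 174 and 7.00 CPM (-4.63, edgeR adjusted p = 0.000234). Tpm1, a tropomyosin with forms in non-muscle cells, averaged 443 and 417 CPM and was not called. The other tested sarcomere genes without a call were Acta1, Tnnt3, Tnni2, Actn3 and Myom1.

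Of the neuromuscular junction genes, 3 of 6 tested fell: Chrna1 and its partner subunits Chrnb1 (22.1 to 2.69 CPM; log2 fold change -3.03) and Chrng (11.7 to 0.898 CPM; -3.67), the fetal subunit. Rapsn, which clusters the receptor, had means of 5.19 and 5.58 CPM and was not called (edgeR adjusted p = 0.912). Of the genes for calcium release and muscle energy, 6 of 10 tested fell and 1 rose. The calcium release channel Ryr1 went from 61.0 to 6.30 CPM (-3.27) and the muscle enolase Eno3 from 24.6 to 11.2 CPM (-1.13). Jph2, a junctophilin that ties the cell surface to the calcium store, rose from 17.0, 2.34, 3.02 and 10.1 CPM to 19.8, 23.6, 69.3 and 114 CPM (2.83, edgeR adjusted p = 0.0185). At P0 Jph2 was highest in NPD30 and next highest in NPD28. The order of the genes that fell was mixed: Eno3 and Chrnb1 were also highest in NPD30, whereas Ryr1 and Chrng were highest in NPD27.

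The litters of a stage differed in the level of these genes, often in the same order. At E12.5 NPD9.2 was highest for 9 of the 10 genes, NDP10.2 being highest for Myod1, and NPD4 was lowest for 9. The 8 genes other than Mef2c and Acta1 summed to 671, 449, 184 and 965 CPM in NDP10.2, NPD3, NPD4 and NPD9.2. At P0 they summed to 15.7, 30.7, 5.41 and 7.28 CPM, and NPD27 was highest for 8 of the 10 genes. The 2 E12.5 libraries richest in these genes, NDP10.2 and NPD9.2, also had the most reads that could belong to more than 1 gene (16.3% and 17.5% of the reads tallied, against 7.07% to 11.6% in the other 6). The part of this difference in the result was not tested. With both litters left out, 5 of the 10 genes were still called lower, Pax7 (edgeR adjusted p = 0.239) and Chrna1 (0.0526) being lost.

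Markers of the sclerotome, the part of the somite that forms vertebrae, fell beside the muscle genes. All 6 tested genes of this list fell, and the list summed to 114 to 168 CPM before birth and to 4.83 to 13.6 CPM after it. Pax1, its defining marker here, spanned 67.7 to 100.3 CPM in the E12.5 litters and 1.18 to 3.75 CPM in the P0 litters. Smooth muscle genes did not fall as a group: Tagln and Myh11 rose, Actg2 fell, and the list summed to 49.6 to 184 CPM in the E12.5 litters and 113 to 374 CPM in the P0 litters. The tendon list overlapped between the stages, summing to 14.4 to 28.7 CPM in the E12.5 litters and 16.0 to 39.9 CPM in the P0 litters. Of its 2 tested genes Scx fell, and Mkx had means of 8.06 and 17.8 CPM and was not called (edgeR adjusted p = 0.121). Whether tissue adjoining the notochord supplied muscle RNA was not tested.

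**Figure D3:**
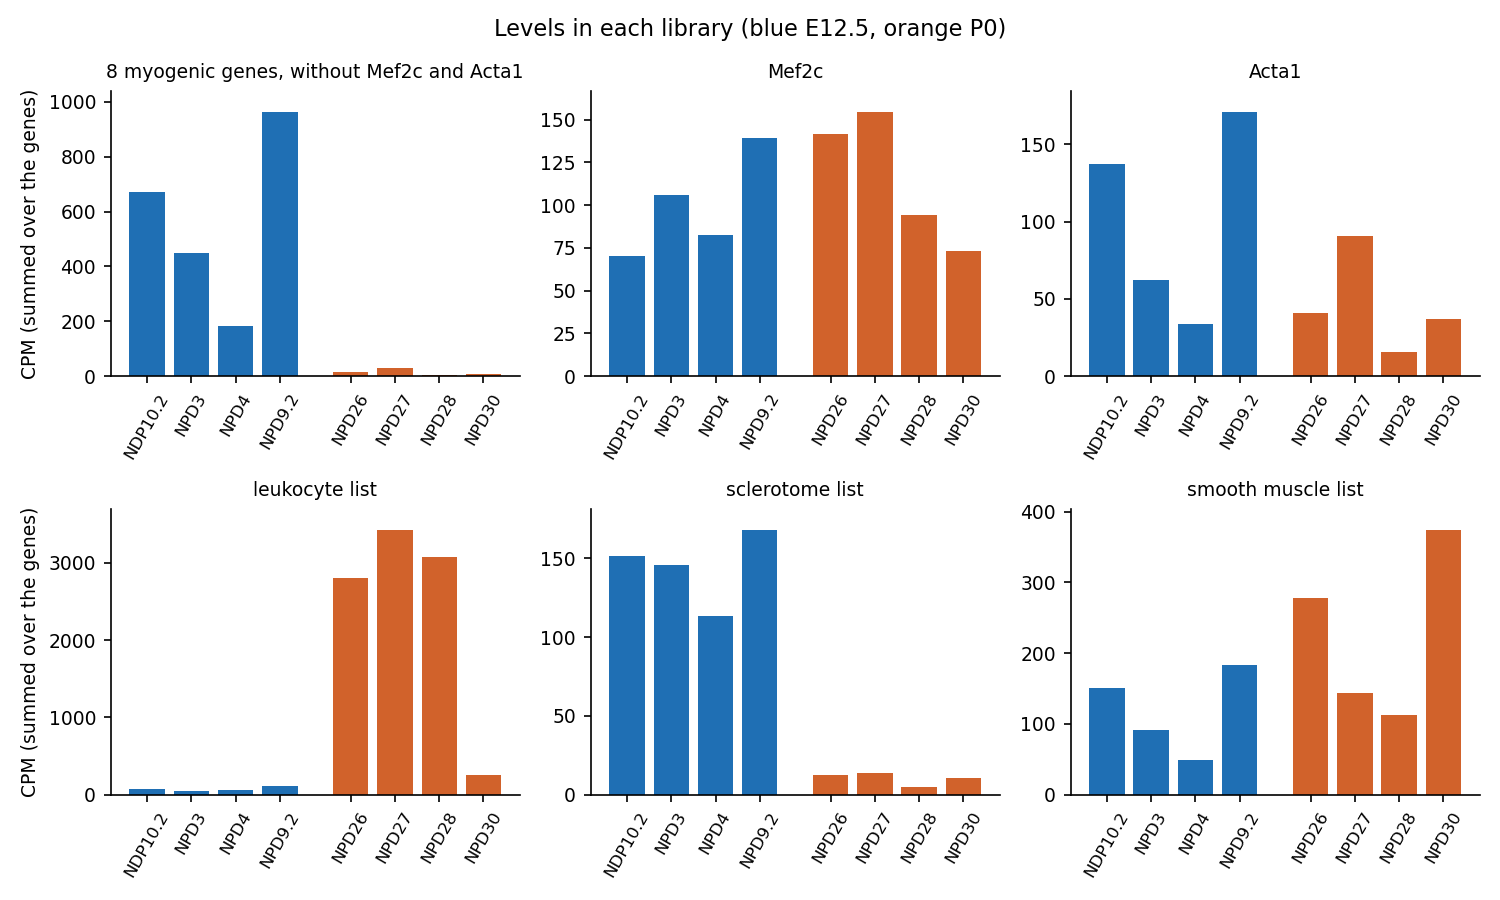
Levels in each library (bars, CPM, from 0; blue E12.5, orange P0) of the 8 myogenic genes other than Mef2c and Acta1 (summed), of Mef2c, of Acta1, and of the summed leukocyte, sclerotome and smooth muscle lists. The 8 genes and the sclerotome list are high in all 4 E12.5 litters, and NPD30 has the lowest leukocyte sum of the P0 litters.

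The genes with the profile most like that of Myog were found from log2 CPM centred on each gene's own mean over the 8 samples, by the root mean square difference from Myog. Myod1 was the nearest of all tested genes (0.302 on the log2 scale). Outside the 10 genes, the nearest were Wnt7b, a secreted Wnt ligand (0.337), Ttn (0.526), Neb (0.566), Gja5, the gap junction protein connexin 40 (0.579), and Hand1, a basic helix-loop-helix factor of heart and lateral mesoderm (0.587). Wnt7b was at 22.4, 12.3, 8.58 and 31.2 CPM at E12.5, and no P0 litter passed 0.944 CPM, so that it too was highest in NPD9.2. Tnnt1 (0.527) was the next of the 10, while Acta1 (1.82) and Mef2c (2.48) were the farthest. The points are 8 samples in 2 stages, so any gene with a like fall shares most of this profile.

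The promoters were searched on both strands for the letters of these sites. Promoters of 9 of the 10 genes were in the RefSeq table, 11 in all, since Mef2c has 3; Myod1 had no entry. An E-box (CANNTG) was present in 7 of the 11, and in 66.2% of all 32851 promoters of this length, a similar share. The palindrome CAGCTG, 1 form of that E-box, was in the promoters of Acta1 and Chrna1, the latter with 2 copies, and in 13.0% of all promoters. Of the 52 promoters of 43 further genes on the wider list, 24 (46.2%) held CAGCTG. By gene, 11 of 24 wider-list genes that fell held it, as did 2 of 8 that were tested and did not fall and 8 of 11 that were too low to test. Among all tested genes with a promoter, 14.7% held it, and among all those that fell, 17.5%.

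A CArG box was found in the promoters shown above of both sarcomeric actins, its first base 73 bases before the RefSeq start in Acta1 and 47 bases before it in Actc1, and in 1.47% of all promoters. No other promoter of the 10 genes held one. The MEF2 site was searched in a strict form only, and sites that depart from it by any base were not counted. That form was in none of the 11 promoters and in 0.508% of all. Whether looser MEF2 sites lie in these promoters, that of Myog included, was not tested. The annotated starts are not measured in these cells, and a match describes letters in this window, not a bound site.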

How the data were processed

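RNA was sequenced from 8 samples, 4 litters each at E12.5 and P0, as single-end reads of 100 bases (TotalScript libraries). Per the labels and the study's methods, the authors aligned reads with STAR (2.4.0j) to GRCm38.p3 and counted them per gene with htseq-count against Gencode M4; the submitters' notes also list mm9. The deposited values are these raw counts, and whether counting used strand is not given in the sources used here. Rows of reads assigned to no gene were left out. Of 43346 identifiers, 42462 were matched to a symbol, with coordinates from Gencode M21 (GRCm38). No other gene's annotated exons overlap those of the 10 genes.

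Counts were tested in R 4.3.3 with edgeR 4.0.16: TMM, filterByExpr (minimum count 10), quasi-likelihood F-test with robust estimates, and Benjamini-Hochberg adjustment over 15467 genes, after the script was tested on simulated data. Shares were compared with exact permutation tests in scipy 1.17.1. Alternatives were DESeq2 1.42.0, limma-voom (limma 3.58.1), other scalings and filters, a test against a fold change of 2, and leaving out litters. Besides the 10 genes, the text names the 3 genes of highest mean CPM in each muscle group (1 of them is not reported here) and the 5 genes nearest to Myog; others are said to be chosen after their values were seen or stand beside a result. The chondrocyte list, not used further, summed to 2330 to 8199 CPM at E12.5. Members and lists were chosen with earlier results of these data known. Litters were numbered in accession order, which pairs no samples.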

Additional observations from a re-analysis of the deposited data

Results flagged for a closer look

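Of 24 groups of 4 libraries examined for a library far from the rest, 1 stood out, and chance alone marks about 1 in 20 such groups. Myf5 at P0 was at 1.15 CPM in NPD27, against 0.118 to 0.157 CPM in the other 3 P0 litters. The NPD27 value rests on 8 reads and each of the others on 1. NPD27 was also the P0 litter with the highest level of 7 others of the 10 genes.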

How the results depend on the processing

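Across all alternatives run, between 5 and 8 of the 10 genes were called lower and none was called higher. Myod1, Myog, Actc1, Myh3 and Tnnt1 were called lower under all 18 alternatives each. Pax7 lost its call under 6 of 18 (adjusted p up to 0.239) and Chrna1 under 2 of 18 (up to 0.0549). Of the wider list, 22 of 60 tested genes were called lower without the E12.5 litters NDP10.2 and NPD9.2; 0 were called higher when tested against a fold change of 2, and 1 to 2 were with 1 litter left out, 1 without NPD4. With 1 litter left out, the difference in the Acta1 share ranged from 59.7 to 63.4 percentage points and that in the Myh3 share from -37.2 to -25.3, and the exact p, 0.0571, was the smallest that 3 against 4 allows. Requiring 30 reads gave -23.0 percentage points for Myh3. Counts divided by merged exon length gave -25.4 percentage points for Myh3 and 60.8 for Acta1. No paired analysis was possible because the labels give the litters no shared numbers. P0 levels of the genes that fell rest on few reads, which limits their precision, and each stage had only 4 litters.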
